A study of Gallus gallus with 48 samples.

Results

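The genes described here are the nuclear-encoded subunits of mitochondrial oxidative phosphorylation, with the assembly factors whose symbols carry the same prefixes, measured in the combined retina and retinal pigment epithelium of young chicks. Members were all genes whose symbol in the array annotation starts with NDUFA, NDUFB, NDUFC, NDUFS, NDUFV, SDH, UQCR, COX4, COX5, COX6, COX7, COX8 or ATP5, each read from its brightest probe set by mean over the 48 arrays. That gave 78 of 13009 named genes. White Leghorn chicks wore a lens over 1 eye from 1 week of age under a 12 hour light and dark cycle, and the other eye of the same bird, without a lens, was its control. The 4 conditions were a lens of -15 D for 6 hours, a lens of +15 D for 6 hours, a lens of -15 D for 3 days and a lens of +15 D for 3 days, each with 6 lens eyes and the 6 control eyes of the same birds. Total RNA from every eye was hybridised to its own Affymetrix Chicken Genome array, so the series holds 48 arrays from 24 birds. The labels do not say which eye wore the lens, and the sources used here give neither the sex of the birds nor the time of day of tissue collection.

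A negative lens puts the image behind the retina and the young eye grows longer in response, whereas a positive lens puts the image in front of the retina and slows growth. Oxidative phosphorylation passes electrons from NADH through complex I, or from succinate through complex II, to ubiquinone, and on through complex III and cytochrome c to complex IV, which reduces oxygen. The protons pumped by complexes I, III and IV drive ATP synthase, complex V. The retina is among the tissues with the highest oxygen use, photoreceptor inner segments are packed with mitochondria, and the chick retina has no blood vessels of its own and is supplied from the choroid and the pecten. The roles given below for single subunits are those known from mammals.

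Of the 78 members, 33 were complex I subunits, 6 of them core subunits of its electron-transfer arm and 27 accessory, and 8 were complex I assembly factors. Complex II was represented by SDHA and SDHD and by 4 assembly factors. Complex III had 8 members, complex IV 9, among them NDUFA4 and the supercomplex factor COX7A2L, and complex V 14. SDHB, SDHC, COX7A1 and COX7A2 were not measured under a single symbol on this array and are not analysed here. The alpha subunit of ATP synthase, also known as ATP5A1, was measured under the symbol ATP5F1AZ. The symbol rule takes in no mitochondrially encoded subunit. The members were bright: their mean log2 signals ran between 5.09 and 13.09 with a median of 11.29, against a median of 8.35 for all named genes. No member lay below 4.5, the 95th percentile of the 541 probe sets on the array for viral sequences. Only ATP5G2 at 5.09 and COX7B at 5.26 lay below 6.46, the median signal of the array. NDUFA4, COX6C and ATP5O had the highest signals, all on probe sets of their own, between which levels cannot be compared.

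Array medians lay between 6.39 and 6.51, and all arrays differed from each other. GNAT2 of photoreceptors (12.4), RPE65 of pigment epithelium (12.2) and GLUL of Müller glia (13.7) were high on the arrays, in keeping with the labelled tissue. Other markers of the same cells ran from dim, such as GNAT1 (6.27) and BEST1 (5.73), to bright, such as ARR3 (11.95) and RLBP1 (12.5). The 7 photoreceptor markers had mean signals of 6.27 to 12.43 and the 12 pigment epithelium markers 4.12 to 12.4. The 11 markers of other retinal neurons and Müller glia had 5.58 to 13.73. The 2 eyes of a bird deviated together from their group means, with a median correlation over probe sets of 0.42 (lowest -0.23, highest 0.85), and above 0.1 in 20 of 24 birds. In these pieces of tissue, fewer cells of a type and less RNA per cell cannot be told apart. With the lens of -15 D for 6 hours, bird 3 stood apart: the SD of its difference over all probe sets was 0.61, against 0.192 to 0.403 in the other birds. With the lens of -15 D for 3 days, all 20 striated muscle markers had a mean difference above 0, and the list's mean difference was 2.85 in bird 5 and 3.86 in bird 6, against -0.0471 to 0.129 in the other 4 birds. The mean of these markers on an array was 5.67 to 9.45 in lens eyes and 5.59 to 5.78 in control eyes of that condition.

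With the lens of -15 D for 6 hours, most members had a slightly higher mean signal in lens eyes than in control eyes, but no single member passed the test. The difference was above 0 in 68 of 78 members and below 0 in 10, with a median of 0.0467 log2 across members. The median over all named genes was 0.0111, with 54.8% of genes above 0. In limma with the bird as a block and Benjamini-Hochberg adjustment over 38382 probe sets, 0 of 78 members passed an adjusted p of 0.05, where 0.0391% of all probe sets did. At an unadjusted p under 0.05 there were 5 members, all higher in lens eyes, and 10.1% of all probe sets fell under that p. By complex, the median difference was 0.0601 for the accessory subunits of complex I (25 of 27 above 0), 0.0269 for its core subunits (5 of 6) and 0.019 for its assembly factors (6 of 8). It was 0.0596 for the complex II assembly factors (4 of 4), 0.0447 for complex III (6 of 8), 0.0433 for complex IV (8 of 9) and 0.0383 for complex V (13 of 14). The pair of complex II subunits had a median of 0.0157, with SDHA at -0.0347. The median standard error of a single member's difference was 0.0513.

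The 5 members with the smallest p after 6 hours of the -15 D lens were 4 complex I subunits and 1 complex I assembly factor. NDUFAF8, an assembly factor that partners NDUFAF5, had lens-eye signals of 7.55 (lowest), 7.94 (median) and 8.04 (highest), against 7.28, 7.76 and 7.97 in control eyes. Its difference was 0.18 (SE 0.0674, 95% interval 0.04 to 0.32, adjusted p = 0.302, limma), and the lens eye was the higher one in 6 of 6 birds although the groups overlapped. NDUFA1, an accessory subunit of the membrane arm, had 10.67, 10.88 and 11.05 in lens eyes, against 10.53, 10.73 and 10.91 in control eyes, a difference of 0.13 (SE 0.0512, adjusted p = 0.335, limma). Again every bird had the higher value in its lens eye and the groups overlapped. NDUFS6, a zinc-binding accessory subunit, had 12.37, 12.52 and 12.59 in lens eyes and 12.32, 12.39 and 12.52 in control eyes, with a difference of 0.089 (SE 0.0378, adjusted p = 0.411, limma). NDUFS7, a core subunit that holds the last iron-sulphur cluster before ubiquinone, and the accessory subunit NDUFB4 both had a difference of 0.12, with adjusted p-values of 0.438 and 0.444 in limma. The lens eye was higher in 6 of 6 birds for 9 members (COX6A1, NDUFA1, NDUFA7, NDUFAF8, NDUFB2, NDUFB4, NDUFB5, NDUFS6 and NDUFS8), which is 11.5% of members, against 2.49% of named genes and 1.92% of all probe sets.

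The birds were not alike in this. The mean difference over the 78 members was -0.00996, -0.00626, 0.08, 0.0338, 0.133 and 0.0683 in birds 1 to 6 (mean 0.0498, SD 0.055, n = 6), and 33 to 70 members were above 0 in a single bird. Birds 3 and 5, at 0.08 and 0.133, were the 2 with the highest means, and markers of other tissues differed between the eyes of both: in bird 3 the choroid list differed by 4.21 and the crystalline lens list by -2.74, and in bird 5 the crystalline lens list differed by -5.38. The choroid, sclera and vessel markers averaged 5.92 to 9.81 per array in lens eyes and 5.61 to 8.21 in control eyes, and the crystalline lens markers 6.78 to 6.93 in lens eyes and 6.76 to 12.27 in control eyes. Without birds 3, 4 and 5, whose marker lists differed by more than 2 log2, the median over members was 0.0167 and 52 of 78 members were above 0. The 12 pigment epithelium markers all had a mean difference above 0 in this condition, with a median of 0.227, and their mean on an array was 8.07 to 10.38 in lens eyes and 8.09 to 9.43 in control eyes. The 3' to 5' ratio of the beta-actin control probe sets, a measure of RNA integrity and labelling, was lower in the lens eye in 6 of 6 birds, by 0.014 to 0.526 log2. Adjusted for that ratio, the median over members was 0.0461. Of the 7 photoreceptor markers, 6 were above 0 in this condition (median 0.0953), and 4 of 7 were with -15 D for 3 days (0.00567). With +15 D all 7 were above 0 at 6 hours (0.182) and 5 of 7 at 3 days (0.042). The part of the pigment epithelium and photoreceptor markers in the result was not tested.

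With the lens of -15 D for 3 days, the members were again mostly higher in lens eyes, and again none passed the test. The difference was above 0 in 67 of 78 members and below 0 in 11, with a median of 0.0638, where named genes had a median of 0.027 and 60.2% above 0. In limma, 0 of 78 members passed an adjusted p of 0.05, as did 0.0703% of all probe sets. At an unadjusted p under 0.05 there were 17 members, all higher in lens eyes and 10 of them among the 27 accessory subunits of complex I, where 14.2% of all probe sets fell under that p. The median difference was 0.0747 for the accessory subunits of complex I (25 of 27 above 0), 0.0735 for its core subunits (4 of 6) and 0.0702 for its assembly factors (6 of 8). It was 0.0282 for SDHA and SDHD, 0.12 for the complex II assembly factors (4 of 4), 0.0634 for complex III (6 of 8), 0.0476 for complex IV (8 of 9) and 0.0481 for complex V (12 of 14).

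**Figure D1:**
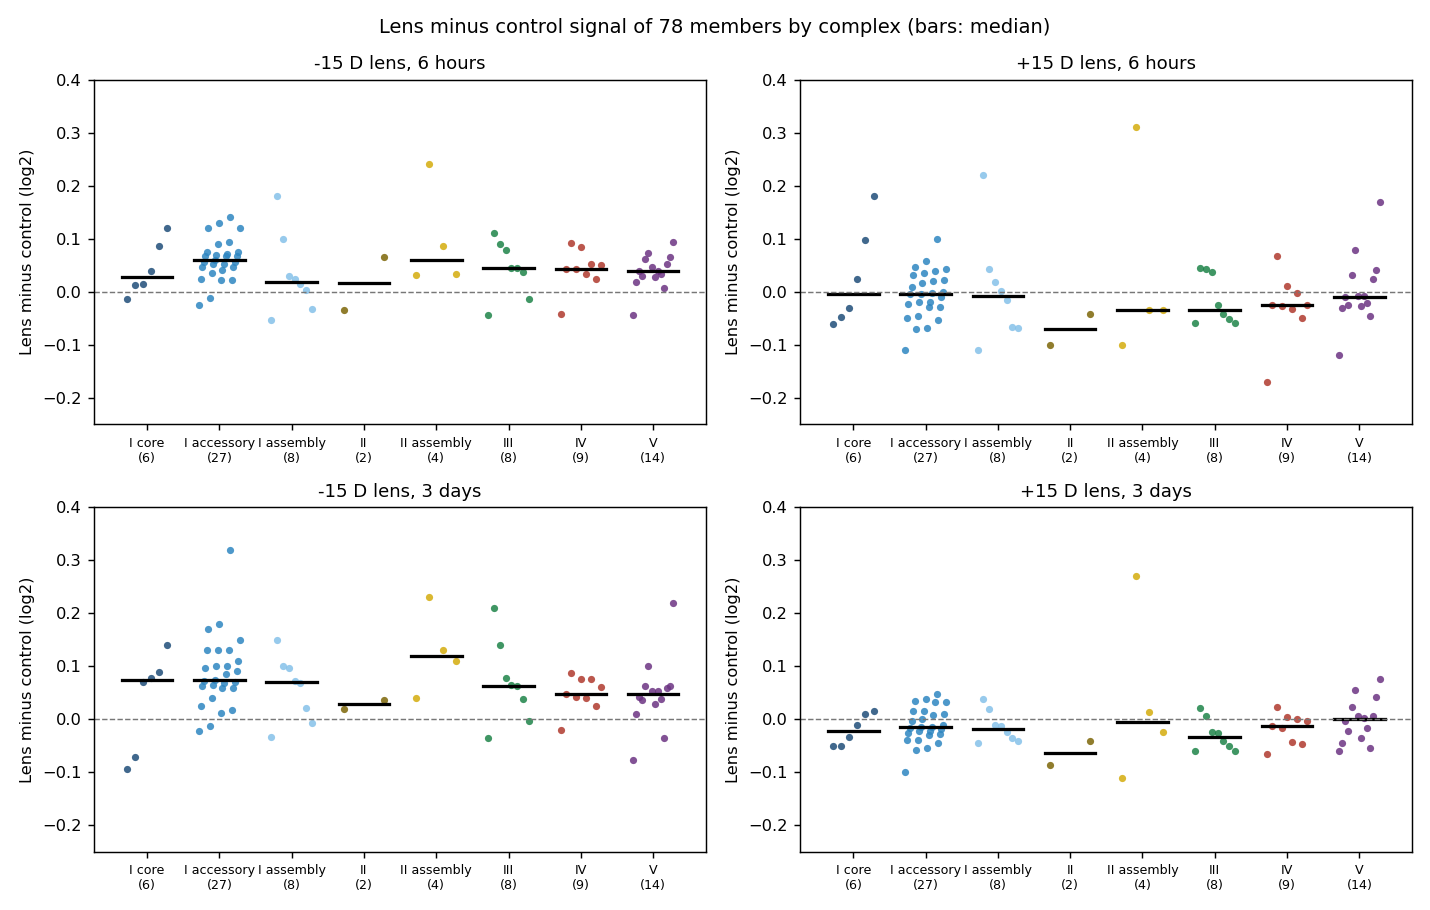
Each point is 1 member's mean difference between lens and control eyes (log2, vertical axis) in 1 condition, grouped by complex, with the median of the group as a bar. With the -15 D lens 68 of 78 members lie above 0 at 6 hours and 67 of 78 at 3 days, with the +15 D lens 30 and 28 of 78.

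NDUFS5, an accessory subunit on the intermembrane-space side of complex I, had the largest difference and the smallest p of the members in this condition. Its signal was 7.61 (lowest), 7.8 (median) and 7.88 (highest) in lens eyes, against 7.3, 7.46 and 7.55 in control eyes. The groups did not overlap, and the lens eye was higher by 0.39, 0.31, 0.36, 0.27, 0.35 and 0.25 in birds 1 to 6. The difference was 0.32 (SE 0.0705, 95% interval 0.18 to 0.47, adjusted p = 0.0655, limma), which misses the threshold. In the other conditions the difference of NDUFS5 was 0.0466 with -15 D for 6 hours, -0.0534 with +15 D for 6 hours and 0.0156 with +15 D for 3 days. The difference between the -15 D and the +15 D response at 3 days was 0.31, with an adjusted p of 0.412 in limma.

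ATP5J, coupling factor 6 in the stalk of ATP synthase, had 7.32, 7.39 and 7.48 in lens eyes, against 6.91, 7.23 and 7.28 in control eyes. The groups did not overlap, the lens eye was higher in every bird, and the difference was 0.22 (SE 0.0639, 95% interval 0.08 to 0.35, adjusted p = 0.116, limma). UQCRB, a small subunit of complex III near its ubiquinone site, had 7.82, 7.98 and 8.14 in lens eyes, against 7.61, 7.77 and 8.03 in control eyes. Here the groups overlapped, while the within-bird difference was above 0 in 6 of 6 birds and averaged 0.21 (SE 0.0614, 95% interval 0.08 to 0.33, adjusted p = 0.117, limma). The complex II assembly factor SDHAF3 differed by 0.23 (adjusted p = 0.132, limma) and the accessory complex I subunit NDUFA5 by 0.17 (adjusted p = 0.141, limma), each with all 6 lens eyes above their partners. NDUFA1 was at 10.67, 10.85 and 10.93 in lens eyes and 10.52, 10.71 and 10.8 in control eyes, a difference of 0.15 (adjusted p = 0.164, limma), close in size to its 0.13 in the other birds that wore the lens for 6 hours. Among the brightest members the differences were smaller: ATP5O, which joins the stalk of ATP synthase to its head, differed by 0.0536, COX6C by 0.04 and NDUFA4 by 0.0246.

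**Figure D2:**
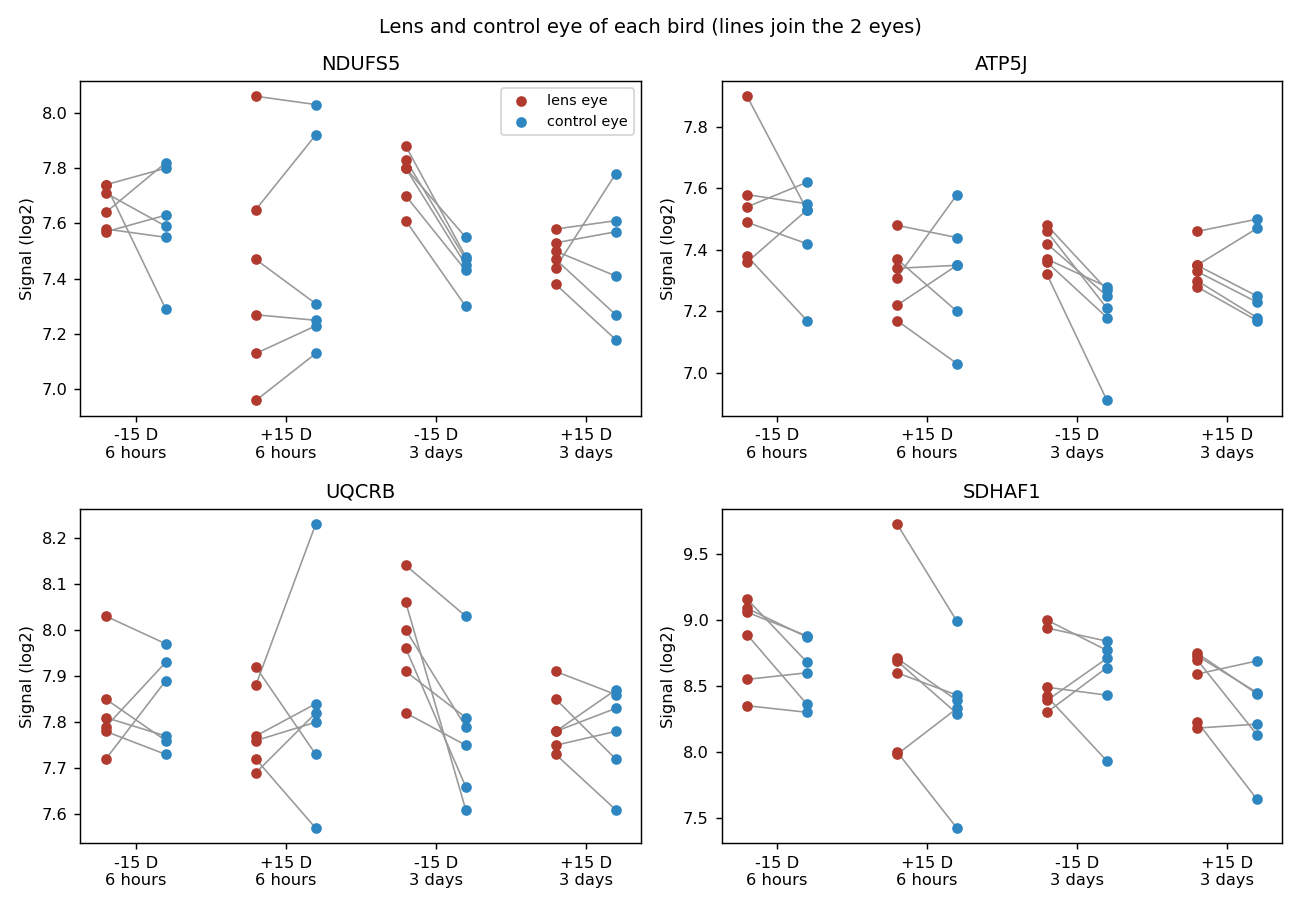
Log2 signal (vertical axis) of NDUFS5, ATP5J, UQCRB and SDHAF1 in every eye by condition, lens eyes in red at the left and control eyes in blue at the right, with a line joining the eyes of a bird. For NDUFS5 with -15 D for 3 days the lens eyes lie between 7.61 and 7.88 and the control eyes between 7.3 and 7.55.

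Lens eyes were higher in 6 of 6 birds for 24 members after 3 days of the -15 D lens, which is 30.8% of members, against 10.1% of named genes and 6.3% of all probe sets. They came from every complex but complex II itself: COX4I1, COX6C and COX7C of complex IV, ATP5E and ATP5J of complex V, UQCR11 and UQCRB of complex III, the complex II assembly factors SDHAF2, SDHAF3 and SDHAF4, 13 complex I subunits and 1 complex I assembly factor. The bird means over the members were 0.183, 0.0122, 0.0606, 0.0441, 0.0309 and 0.0749 in birds 1 to 6 (mean 0.0676, SD 0.0606, n = 6), so all 6 were above 0 and bird 1 was the highest. In the same birds the median over all named genes was 0.0735, 0.0157, 0.0279, 0.0107, 0.0264 and 0.0047, also above 0 in each. Both 3' to 5' ratios moved with the lens here: the actin ratio was higher in the lens eye in 6 of 6 birds, by 0.179 to 0.506, and the GAPDH ratio in 6 of 6, by 0.035 to 0.225. With the actin ratio as a covariate the median over members was 0.0508. Without birds 5 and 6, which carried the muscle signal, the median was 0.0629 and 68 of 78 members were above 0, and without birds 4, 5 and 6, bird 4 for a crystalline lens list that differed by -4.8, it was 0.0719 with 67 of 78. In this condition 12 of 14 choroid, sclera and vessel markers were above 0 (median 0.642; array means 5.88 to 7.75 in lens eyes and 5.74 to 8.3 in control eyes), and 12 of 13 crystalline lens markers were below 0 (median -0.851; 6.79 to 7.1 in lens eyes and 6.73 to 11.9 in control eyes). The part of the choroid markers in the result was not tested.

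**Figure D3:**
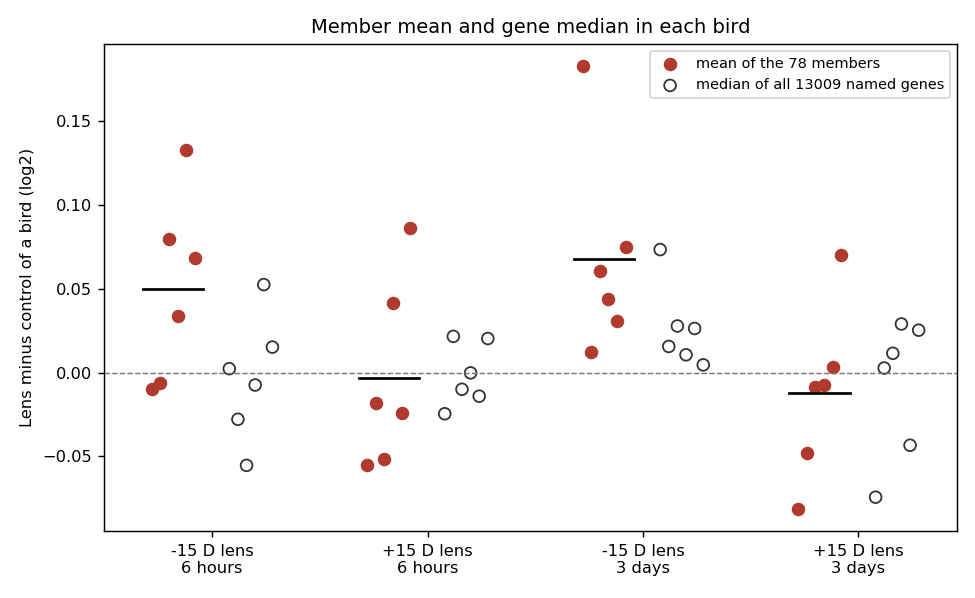
Mean difference between lens and control eyes over the 78 members (log2, vertical axis) for each bird by condition, with the mean of the 6 birds. With -15 D for 3 days the birds lie between 0.0122 and 0.183, and with +15 D for 3 days between -0.0815 and 0.0702.

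With the lens of +15 D the members were near 0 at both times, with somewhat more of them lower in lens eyes. At 6 hours, 30 of 78 members were above 0 and 48 below, with a median of -0.0175, where named genes had a median of -0.00583 and 47.6% above 0. In limma, 0 of 78 passed an adjusted p of 0.05, against 0.00782% of all probe sets, and 5 had an unadjusted p under 0.05, against 7.51% of all probe sets. Higher in lens eyes among these were SDHAF1 and NDUFAF3, and lower were ATP5C1, NDUFA9 and COX7B. At 3 days, 28 of 78 were above 0 and 50 below, with a median of -0.0159, where named genes had -0.00343 and 47.8% above 0. Again 0 of 78 passed in limma, against 0.00521% of all probe sets, and 2 had an unadjusted p under 0.05, against 3.92% of all probe sets.

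By complex, the +15 D medians at 6 hours were -0.00376 for the core and -0.0046 for the accessory subunits of complex I, -0.0731 for SDHA and SDHD, -0.0339 for complex III (3 of 8 above 0), -0.0253 for complex IV (2 of 9) and -0.00958 for complex V (5 of 14). At 3 days they were -0.0215 for the core and -0.0145 for the accessory subunits of complex I, -0.0634 for SDHA and SDHD, -0.0331 for complex III (2 of 8), -0.0118 for complex IV (3 of 9) and 0.000422 for complex V (7 of 14). SDHA, the flavoprotein that oxidises succinate, differed by -0.1 at 6 hours and -0.0403 at 3 days, and SDHD, a membrane anchor of complex II, by -0.0865 at 3 days (adjusted p = 1.0, limma). The bird means over members were -0.0551, -0.0178, -0.0513, 0.0414, -0.0242 and 0.0863 at 6 hours (mean -0.00345, SD 0.056, n = 6). At 3 days they were -0.0815, -0.0479, -0.00832, -0.00736, 0.00337 and 0.0702 (mean -0.0119, SD 0.0513, n = 6), so birds lay on both sides of 0 at both times. The median over members turned positive when bird 1 was left out, at 0.00907 for 6 hours and 0.00202 for 3 days. The actin ratio differed between the eyes by -0.706 to 0.098 at 6 hours and by -0.57 to 0.322 at 3 days. With the actin and the GAPDH ratio as covariates, the 6 hours median was -0.00389 and -0.00168, each with 37 of 78 members above 0. The 3 days median was -0.0166 (26 of 78) and -0.0101 (30 of 78). Without birds 1, 3 and 4 of the 3 days group, whose marker lists differed by more than 2 log2 between the eyes, the 3 days median was 0.0066 and 44 of 78 members were above 0.

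SDHAF1, which helps insert iron-sulphur clusters into complex II, was the member with the largest difference at +15 D. At 6 hours it had 7.98, 8.64 and 9.73 in lens eyes, against 7.42, 8.36 and 8.99 in control eyes, a difference of 0.31 (SE 0.12, 95% interval 0.06 to 0.56, adjusted p = 0.66, limma). At 3 days it had 8.18, 8.64 and 8.75 in lens eyes and 7.64, 8.33 and 8.69 in control eyes, a difference of 0.27 (adjusted p = 1.0, limma). The groups overlapped widely both times. NDUFAF3, an assembly factor of the ubiquinone-binding module of complex I, had 6.81, 7.15 and 7.9 in lens eyes and 6.36, 7.01 and 7.64 in control eyes at 6 hours, a difference of 0.22 (SE 0.0944, adjusted p = 0.66, limma), which was 0.12 without bird 1. ATP5C1, the rotating gamma subunit of ATP synthase, had 11.39, 11.9 and 12.02 in lens eyes, against 11.78, 11.93 and 12.09 in control eyes, a difference of -0.12 (SE 0.0487, adjusted p = 0.66, limma), which was -0.0601 without bird 6. These ranges overlap, and the lowest lens eye lay below every control eye. No member was above 0 in 6 of 6 birds at 6 hours (all probe sets 1.46%), and at 3 days 3 members were below 0 in 6 of 6 (3.85%, all probe sets 1.63%): ATP5F1AZ, NDUFAB1 and UQCRC1.

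NDUFAB1, the mitochondrial acyl carrier protein and a complex I subunit, lay in opposite directions under the lenses at 3 days. With +15 D it had 11.36, 11.49 and 11.55 in lens eyes, against 11.45, 11.5 and 11.79 in control eyes, a difference of -0.0999 (SE 0.0463, adjusted p = 1.0, limma) with the lens eye lower in 6 of 6 birds. With -15 D the difference was 0.0628 (adjusted p = 0.589, limma) with the lens eye higher in 6 of 6. The difference between these responses was 0.16 with an adjusted p of 0.463 in limma, so it did not pass.

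The direct test of lens sign, the -15 D response minus the +15 D response, called no member. The lenses of -15 D and +15 D were worn by different birds, so lens sign and the set of birds cannot be told apart in this difference. At 6 hours this difference was above 0 in 64 of 78 members with a median of 0.0582, where named genes had 0.00613 and 52.3% above 0. Without the birds with large marker differences it was 0.0318 with 51 of 78 above 0. Marker lists moved with this contrast: all 12 pigment epithelium markers were above 0 (median 0.293), as were 11 of 14 choroid markers (0.689), and all 13 crystalline lens markers were below 0 (-1.16). Of the 7 photoreceptor markers, 1 was above 0 (-0.0512). In limma 0 members and 0% of all probe sets passed, and 1 member had an unadjusted p under 0.05, against 3.55% of all probe sets. At 3 days it was above 0 in 69 of 78 with a median of 0.0807, where named genes had 0.0342 and 61.0% above 0. Without the birds with large marker differences it was 0.0669 with 62 of 78 above 0, and all 20 striated muscle markers were above 0 in this contrast (median 1.14). So were 11 of 14 choroid markers (0.355), 11 of 13 crystalline lens markers (0.422), 5 of 12 pigment epithelium markers (-0.0455) and 3 of 7 photoreceptor markers (-0.0118). Here too 0 members and 0% of probe sets passed in limma, and 14 members, all with the higher response to -15 D, had an unadjusted p under 0.05, against 9.26% of all probe sets. By complex, the 6 hours difference was above 0 in 27 of 33 complex I subunits (median 0.0591), 7 of 8 complex III (0.0535), 9 of 9 complex IV (0.0583) and 11 of 14 complex V members (0.0437). At 3 days it was above 0 in 28 of 33 complex I subunits (median 0.085), 8 of 8 complex I assembly factors (0.0649), 8 of 8 complex III (0.096), 8 of 9 complex IV (0.0554) and 12 of 14 complex V members (0.0557).

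The change of the response with time called no member either. For -15 D, the 3 days response minus the 6 hours response was above 0 in 48 of 78 members with a median of 0.0193, and in limma 0 members passed, against 0.0104% of probe sets, while 2 had an unadjusted p under 0.05, against 10.2% of probe sets. The -15 D median was not stable: it was 0.0584 (59 of 78 above 0) without the birds with large marker differences, 0.00496 with the actin covariate and -0.0129 without bird 1 of the 3 days group. For +15 D it was above 0 in 42 of 78 with a median of 0.00482, and it lay between -0.0128 and 0.0176 with 1 bird left out. In limma 0 members and 0% of probe sets passed, and 0 members had an unadjusted p under 0.05, against 3.47% of probe sets. Different birds were used at the 2 times. The member differences at the 2 times had a Pearson correlation across the 78 members of 0.13 with -15 D and 0.43 with +15 D. Over named genes it was 0.37 and 0.26. The members share their arrays and are not independent. With -15 D, 60 of 78 members (76.9%) were above 0 at both times, against 36.3% of named genes. With +15 D, 31 of 78 (39.7%) were below 0 at both times, against 31.6% of named genes, and 11 (14.1%) were above 0 at both, against 26.9%. These shares largely follow from the counts at each time alone, such as 68 and 67 of 78 members above 0 with -15 D. They therefore do not show that the same members responded at both times.

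Over all 24 birds, whatever the lens, 59 of 78 members were above 0 with a median of 0.0246, where named genes had 0.00652 and 54.9% above 0. In limma 0 of 78 passed, against 0.373% of all probe sets, and 12 had an unadjusted p under 0.05 (11 higher in lens eyes and 1, UQCRC1, lower), against 13.5% of all probe sets. SDHAF1 averaged 8.65 ± 0.4 in lens eyes and 8.43 ± 0.38 in control eyes (SD, n = 24 each), a difference of 0.21 (SE 0.0602, 95% interval 0.09 to 0.34, adjusted p = 0.113, limma). Its differences in the 4 conditions were 0.24 and 0.31 at 6 hours with -15 D and +15 D, and 0.0393 and 0.27 at 3 days. NDUFA1 differed by 0.0687 (SE 0.0256, adjusted p = 0.229, limma) and NDUFA2 by 0.0631 (adjusted p = 0.256, limma). UQCRC1, a core protein of complex III, differed by -0.0394 (adjusted p = 0.299, limma), and its mean difference was below 0 in each condition. With -15 D for 3 days that mean was close to 0, and its birds lay on both sides of 0, between -0.04 and 0.03.

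The defining catalytic subunits showed small differences of no single direction. NDUFV1, which binds NADH and the flavin of complex I, differed by 0.0396 and 0.18 at 6 hours with -15 D and +15 D, and by 0.0885 and 0.0102 at 3 days. Its 0.18 rested on bird 1, without which it was -0.00336. NDUFS1, which carries iron-sulphur clusters beside it, differed by -0.0144 and -0.0609 at 6 hours, and by 0.0696 and -0.0105 at 3 days. Neither subunit passed the test in any condition, and ATP5B, the catalytic beta subunit of ATP synthase, which did not pass either, differed by 0.0654 and 0.0787 at 6 hours, and by 0.0597 and -0.0358 at 3 days. UQCRFS1, the Rieske iron-sulphur protein of complex III, differed by 0.11 and 0.0433 at 6 hours, and by -0.0359 and -0.0596 at 3 days. COX4I1 and COX5A, nuclear subunits around the catalytic core of complex IV, differed by 0.033 and -0.0432 with -15 D for 6 hours and by 0.0476 and 0.0617 with -15 D for 3 days. With +15 D they differed by -0.0253 and -0.0505 at 6 hours and by -0.00387 and -0.0463 at 3 days. None of these passed either. ATP5G1, ATP5G2 and ATP5G3 encode the same mature subunit of the proton-driven ring, and with -15 D for 3 days they differed by 0.0427, -0.0769 and 0.0372.

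The precision of these values bounds what could have been seen. The 95% interval of the lens-minus-control difference lay within ±0.25 log2, a 1.19-fold change, in 70 of 78 members with -15 D for 6 hours, 70 with +15 D for 6 hours, 59 with -15 D for 3 days and 76 with +15 D for 3 days. Over all birds it did so in 77 of 78. Of the members, 37 had further probe sets, 63 in all, and in the 4 conditions (-15 D and +15 D at 6 hours, then at 3 days) the sign of 40, 42, 43 and 31 of these was that of the brightest probe set. With -15 D for 6 hours 38 of the 63 were above 0 with a median of 0.0246, and for 3 days 43 of 63 with a median of 0.0533, so the further probe sets were above 0 in a smaller share than the brightest ones. With the mean of all probe sets of a gene in place of the brightest, the median over members was 0.043 with -15 D for 6 hours, -0.00464 with +15 D for 6 hours, 0.0632 with -15 D for 3 days and -0.00452 with +15 D for 3 days. None of the 63 passed the test in a lens comparison in limma.

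In control eyes, which wore no lens, the members differed little between birds sampled at 3 days and birds sampled at 6 hours. Because different birds were sampled, time in the study, age, time of day and the set of birds cannot be told apart in any comparison of the times. The 3 days minus 6 hours difference, averaged over the control eyes of the -15 D and +15 D birds, was above 0 in 25 of 78 members and below 0 in 53, with a median of -0.0202, where named genes had -0.00368 and 48.7% above 0. In limma 0 of 78 passed, against 2.06% of all probe sets, and 4 had an unadjusted p under 0.05, against 14.1% of all probe sets. The medians were -0.0044 for the core subunits of complex I, -0.0219 for its accessory subunits (8 of 27 above 0), -0.0483 for its assembly factors, -0.1 for the complex II assembly factors, -0.0126 for complex III, -0.0523 for complex IV (2 of 9 above 0) and -0.00799 for complex V (7 of 14). For SDHA and SDHD the median was 0.00323, with 1 of 2 above 0. NDUFAF4, a partner of NDUFAF3 in complex I assembly, averaged 8.71 ± 0.12 at 3 days and 8.92 ± 0.28 at 6 hours (SD, n = 12 each), a difference of -0.21 (SE 0.088, adjusted p = 0.268, limma). ATP5J averaged 7.24 ± 0.15 at 3 days and 7.4 ± 0.18 at 6 hours (SD, n = 12 each), a difference of -0.15 (SE 0.0665, adjusted p = 0.284, limma). COX7A2L, which links complexes III and IV in supercomplexes, differed by -0.11, and NDUFA10 by 0.0987 (adjusted p = 0.239, limma). Over the +15 D birds alone, the median over members was 0.00849, with 43 of 78 above 0, and over the -15 D birds alone it was -0.0435 with 21 of 78 above 0. Without bird 6 of +15 D for 6 hours it was 0.00703.

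The same comparison in lens eyes, which mixes time in the study with time under the lens, called 2 of 78 members (2.56%), against 7.78% of all probe sets in limma, and 7 had an unadjusted p under 0.05, against 23% of all probe sets. The difference was above 0 in 27 members and below 0 in 51, with a median of -0.0105, where named genes had -0.00839. This direction depended on the settings: with the actin ratio as a covariate the median was 0.0595 with 68 of 78 members above 0, with array weights 0.0139 with 46 of 78, without the birds with large marker differences 0.00941 with 41 of 78, and without bird 6 of +15 D for 6 hours 0.0153. NDUFA10, an accessory subunit of complex I related to nucleoside kinases, was higher at 3 days. It averaged 12.32 ± 0.06 in lens eyes at 3 days and 12.16 ± 0.13 at 6 hours (SD, n = 12 each), a difference of 0.15 (SE 0.0418, 95% interval 0.07 to 0.24, adjusted p = 0.0265, limma). The lowest, median and highest signals were 12.26, 12.38 and 12.41 with -15 D and 12.21, 12.29 and 12.33 with +15 D at 3 days, against 12.14, 12.25 and 12.34 with -15 D and 11.93, 12.08 and 12.26 with +15 D at 6 hours, so the times overlapped for either lens.

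UQCRC2, the partner of UQCRC1 in the core of complex III, was lower at 3 days. It averaged 11.37 ± 0.08 in lens eyes at 3 days and 11.48 ± 0.13 at 6 hours (SD, n = 12 each), a difference of -0.11 (SE 0.0332, 95% interval -0.18 to -0.04, adjusted p = 0.0436, limma). With -15 D it was 11.37, 11.44 and 11.51 at 3 days, against 11.55, 11.59 and 11.65 at 6 hours, and with +15 D it was 11.26, 11.31 and 11.38 at 3 days, against 11.32, 11.34 and 11.48 at 6 hours. The times did not overlap under -15 D and overlapped under +15 D. In control eyes the difference of UQCRC2 was -0.0802 (adjusted p = 0.424, limma). Both calls depended on settings. NDUFA10 was past the threshold in 27 of 36 alternatives and UQCRC2 in 12 of 36, and neither was past it with the actin 3' to 5' ratio as a covariate. With 1 bird left out, NDUFA10 passed in 23 of 24 fits, the exception being bird 2 of -15 D for 6 hours (adjusted p = 0.0528, limma), and UQCRC2 in 8 of 24, with adjusted p-values up to 0.0761 without bird 4 of the same condition (limma).

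**Figure D4:**
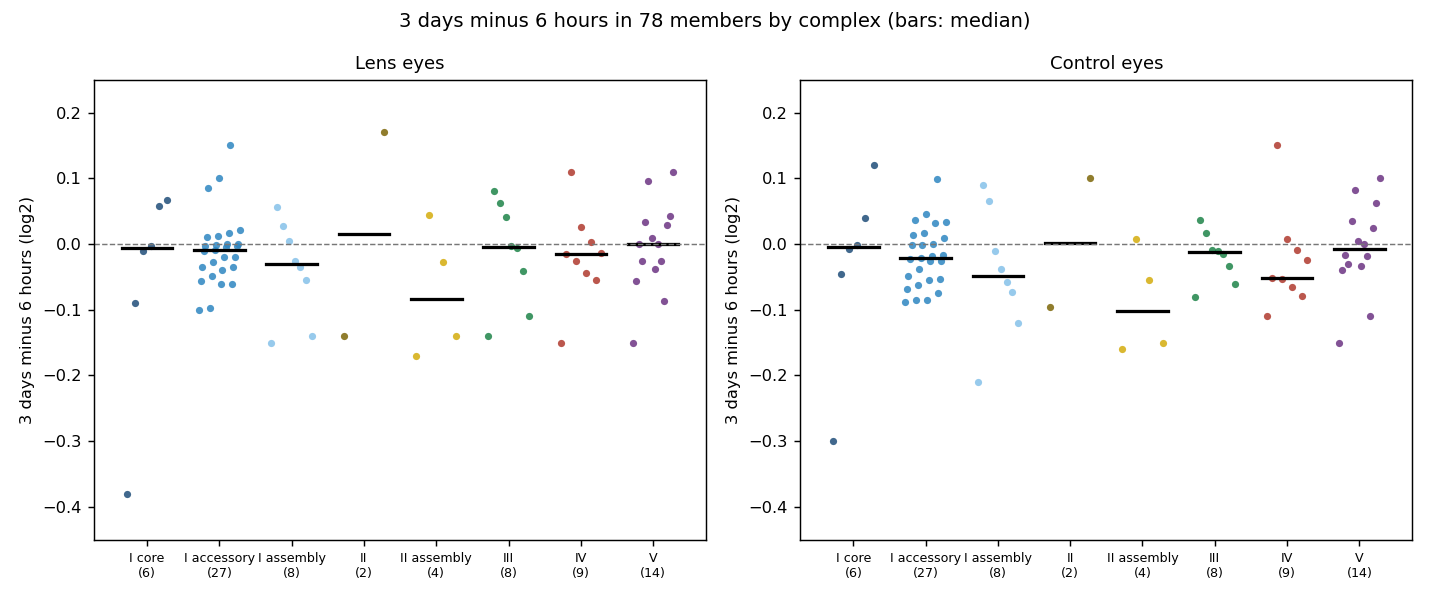
Each point is 1 member's 3 days minus 6 hours difference (log2, vertical axis) by complex, in lens eyes at the left and control eyes at the right, with the group median as a bar. In lens eyes 27 of 78 members lie above 0 and in control eyes 25 of 78.

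After rounding, the SD between birds of the mean of both eyes was above the SD of the within-bird difference in 44 of the 78 members. Equal values were not counted as above, and the SD of a mean and the SD of a difference are not directly comparable. NDUFS3 and SDHAF4, singled out after their values were seen, had by far the widest spread. NDUFS3, a core subunit of complex I, lay between 9.02 and 9.43 in both eyes of 4 birds and between 11.08 and 11.31 in both eyes of the other 20, and the nearest bird means of these sets were 1.77 log2 apart. The Pearson correlation of the eyes over the 24 birds was 0.99, and the SD was 0.73 between birds, against 0.11 for the within-bird difference. Of these 4 birds 3 were in the 3 days groups, and the 95% interval of NDUFS3 in control eyes was -0.88 to 0.28 around a 3 days minus 6 hours difference of -0.3.

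SDHAF4, a chaperone of the flavin-bound SDHA, lay between 8.76 and 9.67 in both eyes of 12 birds and between 10.04 and 10.6 in both eyes of the other 12. The correlation of the eyes was 0.94, and the SD was 0.54 between birds, against 0.19 within birds. Another SDHAF4 probe set placed the same 12 birds low, between 8.77 and 9.32, and the others between 9.58 and 10.44, while a dim one with a mean of 4.53 did not separate them. The low birds numbered 3 of 6 with -15 D for 6 hours, 3 with +15 D for 6 hours, 1 with -15 D for 3 days and 5 with +15 D for 3 days. In the other 76 members the SD between birds lay between 0.05 and 0.36. Because the lens comparison is made within birds, a level shared by both eyes cancels in it, whereas it does enter the comparison of 3 days with 6 hours. The low-level birds of NDUFS3 still had wide lens-minus-control differences. These were 0.27 in bird 3 of +15 D for 6 hours, and -0.3 and -0.23 in birds 2 and 6 of -15 D for 3 days. The difference was -0.04 in bird 4 of +15 D for 3 days, and -0.09 to 0.1 in the high-level birds.

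**Figure D5:**
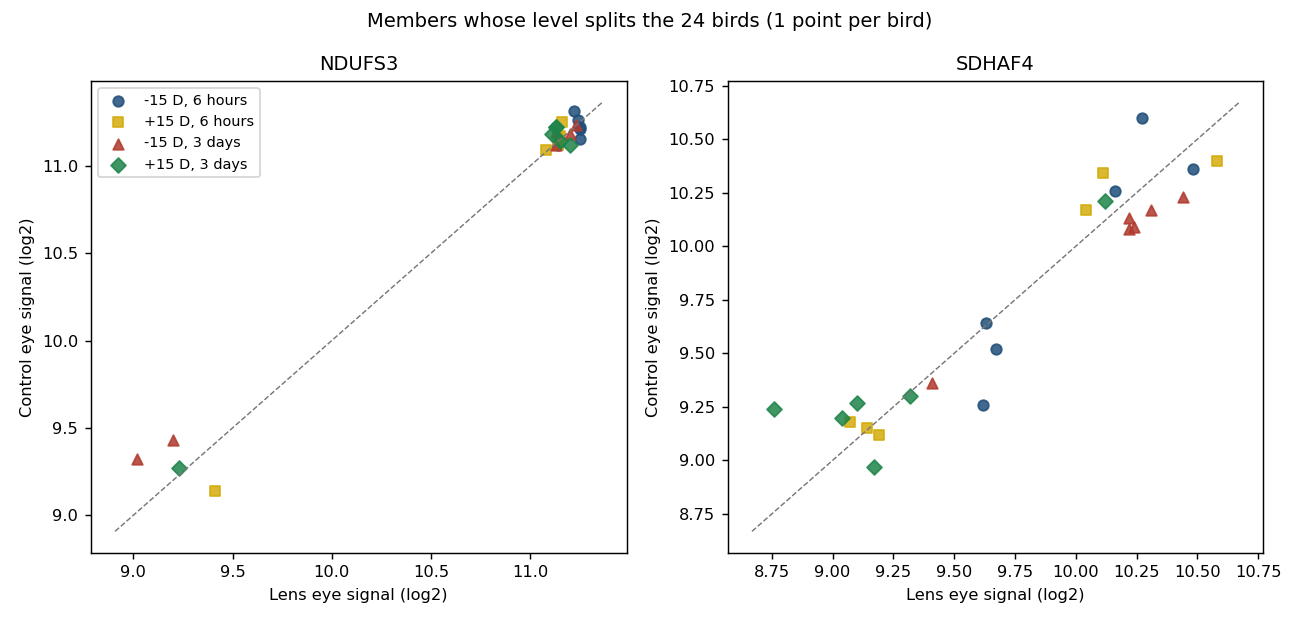
Log2 signal of NDUFS3 and SDHAF4 in the lens eye (horizontal axis) against the control eye of the same bird (vertical axis), 1 point per bird. For NDUFS3 4 birds lie between 9.02 and 9.43 in both eyes and 20 between 11.08 and 11.31.

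Other genes of the pathway were read from lists of 34 electron carriers and assembly factors outside the symbol rule, 17 regulators of mitochondrial biogenesis, 18 genes of pyruvate oxidation and the citric acid cycle, and 14 carriers and porins. None of these genes passed in a lens comparison in limma. Among the electron carriers and assembly factors, 25 of 34 were above 0 with -15 D for 6 hours (median 0.0542) and 27 of 34 with -15 D for 3 days (median 0.0688), and with +15 D 19 and 17 of 34 were. For the biogenesis regulators the counts were 12 and 12 of 17 with -15 D at 6 hours and 3 days, and 8 and 7 with +15 D. The citric acid cycle genes had 10 and 11 of 18 above 0 with -15 D, and 8 and 6 with +15 D. The carriers and porins had 10 and 10 of 14 above 0 with -15 D, and 3 and 4 with +15 D. With -15 D for 3 days their mean difference was 0.456 and 0.597 in birds 5 and 6, which carried the muscle signal, against -0.0122 to 0.0741 in the others. With +15 D for 6 hours it was below 0 in 6 of 6 birds.

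In control eyes 5 of the 83 measured genes of these lists passed the 3 days minus 6 hours test in limma (6.02%, against 2.06% of all probe sets), all of them lower at 3 days. Of named genes, read like the lists from their brightest probe sets, 388 of 13009 passed. CKMT1B, a mitochondrial creatine kinase that passes energy from ATP to creatine, had 11.08, 11.31 and 11.44 at 3 days, against 11.46, 11.67 and 12.21 at 6 hours. The times did not overlap, and the difference was -0.44 (SE 0.0705, adjusted p = 0.00048, limma). COX11, which delivers copper to complex IV, had 8.83, 9.08 and 9.34 at 3 days and 9.09, 9.37 and 9.62 at 6 hours, a difference of -0.25 (SE 0.0614, adjusted p = 0.0326, limma). TMEM70, an assembly factor of ATP synthase, was lower at 3 days by 0.19 (adjusted p = 0.0483, limma). PPARGC1A, a coactivator of mitochondrial biogenesis, was lower by 0.18 (adjusted p = 0.0407, limma), and the times overlapped for both genes. ESRRB, an oestrogen-related orphan receptor, had 5.0, 5.49 and 5.88 at 3 days, against 5.05, 6.04 and 6.45 at 6 hours. It was lower at 3 days by 0.49 (adjusted p = 0.0224, limma). Across the alternatives CKMT1B passed in 34 of 36, ESRRB in 32 of 35, COX11 in 22 of 36, PPARGC1A in 14 of 36 and TMEM70 in 12 of 36.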

How the data were processed

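Retina and retinal pigment epithelium RNA from 48 eyes of 24 chicks was measured on Affymetrix Chicken Genome arrays. The deposited values are log2 signals that the authors normalised across arrays by RMA, with Partek also named, per the submitters' processing notes; RMA compresses differences of dim probe sets. Scanner files are not used here. Of 38535 probe sets, 38382 were tested, the 153 for controls and reporters being excluded, with no filter on low values. Symbols came from the platform annotation, probe sets with several symbols were not named, and 77 of the 78 members matched RefSeq by gene ID (all but NDUFB7). Differences were fitted with limma 3.58.1 (lmFit, eBayes) in R 4.3.3. The lens comparisons used the 48 arrays with the bird as a block, because the labels pair the eyes of a bird, and the comparisons of time used 24 arrays of one kind of eye in 4 groups. P-values were adjusted by Benjamini-Hochberg over all probe sets with a threshold of 0.05. The fits were tested on simulated data first. Named members were those called, the 3 with the lowest p in each comparison, the 3 brightest and 3 dimmest, and a list of well-known subunits; others were named after their values were seen. Counts over members are descriptions with no test of their own. Whether groups overlapped is also only a description, and the share of all probe sets without overlap was not counted. The members and the lists were chosen with earlier results of these data known. Alternatives were no bird block, arrays of 1 condition only, array weights, median centring, signal filters, 3' to 5' ratios as covariates, and each bird left out in turn. Depth does not apply to arrays, whose number limits the precision.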

Additional observations from a re-analysis of the deposited data

Results flagged for a closer look

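Of 176 groups of 6 values examined among the named members and the bird means, 17 had 1 bird far from the other 5. Chance alone marks about 1 in 20 groups, but the total cannot be set against that rate. It includes signal levels of NDUFS3 and SDHAF4, which were singled out for their spread, and the groups share birds. Bird 1 with -15 D for 3 days stood apart in the mean over all members, at 0.183 against 0.0122 to 0.0749 in the others, and also in the lens-minus-control difference of NDUFA2 (0.47), NDUFA4 (0.13) and NDUFAF8 (0.4). With -15 D for 6 hours, bird 5 stood apart in NDUFAF3 (0.45) and NDUFV1 (0.39), and bird 3 in COX6A1 (0.16, the others between 0.01 and 0.05). With +15 D for 6 hours, bird 3, which had the low NDUFS3 level, stood apart in NDUFS3 (0.27) and bird 6 in UQCRFS1 (0.28).

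The remaining ones were signals of the 2 members with separate levels between birds. For NDUFS3 they were a lens eye at 11.14 with -15 D for 6 hours, the eyes of 1 bird with +15 D for 6 hours (lens 9.41, control 9.14) and those of 1 bird with +15 D for 3 days (lens 9.23, control 9.27). For SDHAF4 they were the eyes of 1 bird with -15 D for 3 days (lens 9.41, control 9.36) and a control eye at 10.21 with +15 D for 3 days.

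NDUFAB1 was higher in all 6 lens eyes with -15 D for 3 days (0.06) and lower in all 6 with +15 D for 3 days (-0.1). The test of that difference gave an unadjusted p of 0.0206 and an adjusted p of 0.463 (limma).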

How the results depend on the processing

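No member passed in any lens comparison without the replicate block, where 0 of 78 were called in each, so the pairing of eyes changed no member's call. The count was also 0 in every alternative run for the -15 D and +15 D lens at 6 hours, +15 D at 3 days, the 4 differences between responses and control eyes over time. With -15 D for 3 days it was 1 with only that condition's arrays, 1 with each signal filter and 5 with array weights (NDUFS5, ATP5J, NDUFA5, SDHAF3 and UQCRB). Over all birds it was 0 to 1 when 1 bird was left out (SDHAF1, without bird 2 of +15 D for 6 hours). For lens eyes over time it was 7 with array weights, 4 with the filter at the median signal, 1 with median centring, 1 in the -15 D birds alone (COX7A2L) and 0 in the +15 D birds alone. It was 0 with the actin or GAPDH ratio as a covariate, with 2 groups by time only, and without the birds with high marker or muscle differences, and 0 to 4 when 1 bird was left out. The GAPDH ratio and both exclusions by markers were chosen after seeing the data. The cause was not tested. With 1 bird left out, the median over members was 0.0331 to 0.0611 with -15 D for 6 hours, 0.0464 to 0.0696 with -15 D for 3 days, -0.0325 to 0.00907 with +15 D for 6 hours, -0.031 to 0.00202 with +15 D for 3 days, -0.0347 to 0.00703 in control eyes over time and -0.0253 to 0.0153 in lens eyes over time. Adjusted p-values in limma with -15 D for 3 days ran from 0.00348 to 0.962 for NDUFS5, 0.0257 to 0.962 for ATP5J and 0.0348 to 0.962 for UQCRB. ATP5J and UQCRB each passed in 1 of 17 alternatives, with differences of 0.14 to 0.25 and 0.12 to 0.23. In lens eyes over time the adjusted p-values in limma ran from 0.00348 to 0.723 for NDUFA10 and from 0.0196 to 0.983 for UQCRC2. Of 6429 values of named genes under an alternative, 98 lost and 19 gained the threshold, and 349 lay on the other side of 0, none of them past the threshold in either setting. The median over members lay on the other side of 0 in 18 of 262.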

Other observations

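In lens eyes, 12 of the 83 genes of the further pathway lists passed the 3 days minus 6 hours test in limma (14.5%, against 7.78% of all probe sets). Of named genes, read like the lists from their brightest probe sets, 1121 of 13009 passed. Lower at 3 days among the 12 were the respiratory chain assembly factors TTC19 (-0.17), COX11 (-0.22), COX20 (-0.28), NUBPL (-0.27) and TMEM70 (-0.19), with USMG5 (-0.18), a small subunit of ATP synthase. So were POLG (-0.28), the polymerase of mitochondrial DNA, VDAC2 (-0.12), a porin of the outer membrane, ESRRB (-0.64) and CKMT1B (-0.52). COX16 (0.22), an assembly factor of complex IV, and C14orf2 (0.18), a small ATP synthase subunit, were higher at 3 days. Among the further probe sets of members, those of COX5A, NDUFAF2, NDUFAF4, NDUFB4 and UQCRC2 included 5 of 63 that passed the same test, a share of 7.94%, close to the 7.78% of all probe sets.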
